A study of Homo sapiens with 9 samples.

Results

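LAT1, the large neutral amino acid transporter 1, is a pair of chains encoded by SLC7A5 and SLC3A2, and the 7 genes described here are that pair and 5 related carriers: SLC7A8, SLC43A1, SLC43A2, SLC7A6 and SLC7A7. They were chosen by symbol, as transporters that carry large neutral amino acids such as leucine and phenylalanine across the cell membrane, out of 19775 genes with a usable probe set. All 7 passed the filter on low signals, as did 11250 genes in all. They were measured in Daudi, an established line of human Burkitt lymphoma, a B cell cancer in which a chromosome translocation drives the transcription factor MYC.

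Cells were infected with a short hairpin RNA that targets MYC (C-Myc-sh, the study's positive control), one that targets SLC7A5 (Slc7a5-sh) or one that serves as control (Ctrl-sh), with 3 arrays for each of the 3 groups. All groups shared selection in puromycin for 48 h and RPMI medium with 10% serum, 2 mM glutamine and 5% CO2, so the Ctrl-sh cells were infected and selected too. The labels call the arrays biological replicates and do not say whether each came from its own infection, so a p-value here measures the spread between these arrays. Neither the hairpin sequences nor the number of hairpins for each gene are given in the sources used here.

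The light chains SLC7A5, SLC7A8, SLC7A6 and SLC7A7 form the pore and reach the cell surface only when joined by a disulfide bond to the heavy chain SLC3A2, also known as CD98. SLC7A5 imports a large neutral amino acid in exchange for one that leaves the cell, often glutamine, and activated or transformed lymphocytes depend on it for leucine, which keeps the growth kinase mTORC1 active. SLC43A1 (LAT3) and SLC43A2 (LAT4) are single-chain facilitators that need no heavy chain and let the same amino acids run down their gradient. SLC7A6 and SLC7A7 (y+LAT2 and y+LAT1) exchange a cationic amino acid such as arginine for a neutral one with sodium.

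In MYC-knockdown cells all 7 genes changed, 3 upward and 4 downward, and the group was not shifted in one direction. The heavy chain SLC3A2 and the light chains SLC7A7 and SLC7A8 rose, while SLC7A5, both SLC43 facilitators and SLC7A6 fell. The calls of SLC43A2, SLC7A6 and SLC7A8 are the less secure. SLC43A2 gave 0.21 over the mean of its 2 probe sets (adjusted p = 0.649, limma), and the SLC7A6 call held in 2 of 6 fits that left out an array. The SLC7A8 call rests on 1 of its 5 probe sets, and the mean over all 5 was too low to be tested. In Slc7a5-sh cells SLC7A5 was the member that passed the test. Because 54.9% of all tested genes were called in C-Myc-sh against Ctrl-sh (28.7% higher and 26.2% lower), 7 of 7 is to be read against a background in which more genes moved than not. In Slc7a5-sh against Ctrl-sh 1 of 7 was called, lower, where 25.3% of all genes were called (14.3% higher and 11.0% lower). Set directly against each other, C-Myc-sh and Slc7a5-sh differed at 4 of 7 members (2 higher and 2 lower in C-Myc-sh), beside 49.5% of all genes (24.4% higher and 25.1% lower). The members' median log2 change was -0.21 in C-Myc-sh and 0.14 in Slc7a5-sh against Ctrl-sh and -0.08 between the knockdowns, beside medians of 0.04, 0.03 and 0.03 over all tested genes. Calls rest on limma's moderated test over all 11250 genes and on a Benjamini-Hochberg adjusted p below 0.05. Both knockdowns were compared with the same 3 Ctrl-sh arrays, so their changes share that error.

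The promoters of these genes are shown because MYC, with its partner MAX, binds the E-box CACGTG, and 4 of the 7 genes carry that motif close to an annotated start. The windows searched ran from 250 bases before to 50 after each of 17 annotated starts of the 7 genes, on both strands, in RefSeq's GRCh38.p14 annotation. The E-box was found at 4 of the 17 starts, against 7.26% of 35116 starts genome-wide, and in 4 of 7 genes against 8.77% of 27305 genes. More windows were searched for each member (17 for 7 genes) than genome-wide (35116 for 27305 genes). The shares of genes are therefore not like for like. Capitals mark the E-box in the 250 bases before the start, printed 5′ to 3′ on the strand of the gene, which is the minus strand in all 4 cases.
SLC7A5, chr16:87869508-87869757, minus strand: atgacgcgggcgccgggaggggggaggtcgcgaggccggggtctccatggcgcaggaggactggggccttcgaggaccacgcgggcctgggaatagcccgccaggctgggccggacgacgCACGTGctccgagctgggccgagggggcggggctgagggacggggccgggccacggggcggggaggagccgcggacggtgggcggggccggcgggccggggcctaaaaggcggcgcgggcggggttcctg
SLC43A1, chr11:57515703-57515952, minus strand: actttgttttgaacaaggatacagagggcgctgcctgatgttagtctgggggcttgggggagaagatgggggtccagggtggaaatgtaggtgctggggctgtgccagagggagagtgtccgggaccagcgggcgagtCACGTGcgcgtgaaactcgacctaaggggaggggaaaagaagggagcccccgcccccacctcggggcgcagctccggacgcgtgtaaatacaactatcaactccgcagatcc
SLC7A7, chr14:22815872-22816121, minus strand: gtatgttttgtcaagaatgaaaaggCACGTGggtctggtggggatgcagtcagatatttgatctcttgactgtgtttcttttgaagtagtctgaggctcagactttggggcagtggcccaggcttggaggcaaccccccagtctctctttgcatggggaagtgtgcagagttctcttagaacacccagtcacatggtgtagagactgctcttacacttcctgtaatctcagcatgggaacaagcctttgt
SLC7A8, chr14:23154394-23154643, minus strand: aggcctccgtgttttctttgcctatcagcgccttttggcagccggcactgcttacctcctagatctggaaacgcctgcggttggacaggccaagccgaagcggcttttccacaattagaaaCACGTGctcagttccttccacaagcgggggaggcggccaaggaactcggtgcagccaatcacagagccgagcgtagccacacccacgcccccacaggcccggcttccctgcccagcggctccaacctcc
The motif begins 130 bases before the single annotated start of SLC7A5, 112 before 1 of 2 starts of SLC43A1, 225 before 1 of 3 starts of SLC7A7 and 129 before 1 of 4 starts of SLC7A8. In C-Myc-sh cells SLC7A5 and SLC43A1 fell and SLC7A7 and SLC7A8 rose, so the genes with the motif moved in both directions. The second motif searched, TGATGNAA, is the core of the element through which ATF4 and C/EBP factors act when amino acids are short. It was found at 1 of the 17 starts, which is 1 of 3 starts of SLC3A2, against 3.62% of starts and 4.46% of genes genome-wide. It lay 38 bases into the transcript from that start, on the opposite strand.
SLC3A2, chr11:62881719-62881748, plus strand, motif in capitals as it reads on this strand: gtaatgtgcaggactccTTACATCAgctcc
SLC43A2, with 3 starts, and SLC7A6, with 1, held neither motif in these windows. A match of letters is a description of the sequence, and binding was not measured here.

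The signals were MAS5 values on a log2 scale, scaled so that the trimmed mean linear signal was 497 on every array. The 9 arrays correlated at 0.972 to 0.977 within groups and 0.910 to 0.968 between them, and no array stood apart from its group. Of 9 B cell markers 8 had a probe set and all 8 lay above the filter level, with summed linear signals of 47403 to 51469 in C-Myc-sh, 39250 to 43266 in Slc7a5-sh and 45386 to 47923 in Ctrl-sh. Markers were placed by their mean over all 9 arrays. Myeloid markers were below that level (0 of 5 measured above it), as were T and NK cell markers other than CD3E (1 of 7 above it). In single groups CSF1R (5.94 in Ctrl-sh and 5.83 in C-Myc-sh) and FCGR1A (5.92 in Ctrl-sh) exceeded it. Of 7 epithelial and fibroblast markers KRT8, KRT18, COL1A1 and DCN were above it, KRT8 not in Ctrl-sh (5.61) or C-Myc-sh (5.75). Sums over that list were 501 to 707 in C-Myc-sh, 574 to 670 in Slc7a5-sh and 682 to 824 in Ctrl-sh. The part of these differences in the results was not tested. In bulk RNA a lower signal can come from fewer cells that carry the transcript or from less of it in each cell, and these cannot be told apart.

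MYC, the target of the positive control hairpin, had log2 signals of 12.12, 12.14 and 12.13 in C-Myc-sh, 12.90, 12.79 and 12.93 in Slc7a5-sh and 13.16, 13.26 and 13.24 in Ctrl-sh. The 3 groups did not overlap, with C-Myc-sh lowest and Slc7a5-sh between the other two. MYC fell to 46.9% of the Ctrl-sh level in C-Myc-sh (adjusted p = 4.7e-10, limma) and to 78.7% in Slc7a5-sh (adjusted p = 0.000381). The MYC transcript was thus lower in both knockdowns, and MYC protein was not measured here.

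SLC7A5, the LAT1 light chain and the target of the other hairpin, fell in both knockdowns and did not differ detectably between them. It gave log2 signals of 11.79, 11.78 and 11.84 in C-Myc-sh, 11.86, 11.84 and 11.95 in Slc7a5-sh and 12.06, 12.35 and 12.21 in Ctrl-sh. Every knockdown array lay below every Ctrl-sh array, and C-Myc-sh arrays lay just below Slc7a5-sh arrays without overlap. In Slc7a5-sh the change was -0.32 (SE 0.07, 95% confidence interval -0.47 to -0.17, adjusted p = 0.00414 in limma), or 80.0% of the Ctrl-sh signal. In C-Myc-sh it was -0.41 (SE 0.07, adjusted p = 0.000186), or 75.4%. The gene targeted by the Slc7a5 hairpin was therefore no lower in those cells than in the MYC knockdown: the difference of C-Myc-sh from Slc7a5-sh was -0.08 with an interval of -0.24 to 0.07 (adjusted p = 0.351).

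Of all tested genes 23.6% had a lower change than SLC7A5 in C-Myc-sh, as did 16.1% in the Slc7a5 knockdown, so its fall was of moderate size in both. It was read by a single probe set, 201195_s_at, a type that can also bind related transcripts. The probe set of its partial copies SLC7A5P1 and SLC7A5P2 ranged from 0.91 to 5.47 on the log2 scale, below the filter level of 5.77 on every array. Where the hairpin lies relative to the probes is not given in the sources used here. The values say nothing of SLC7A5 protein or of transport.

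**Figure D1:**
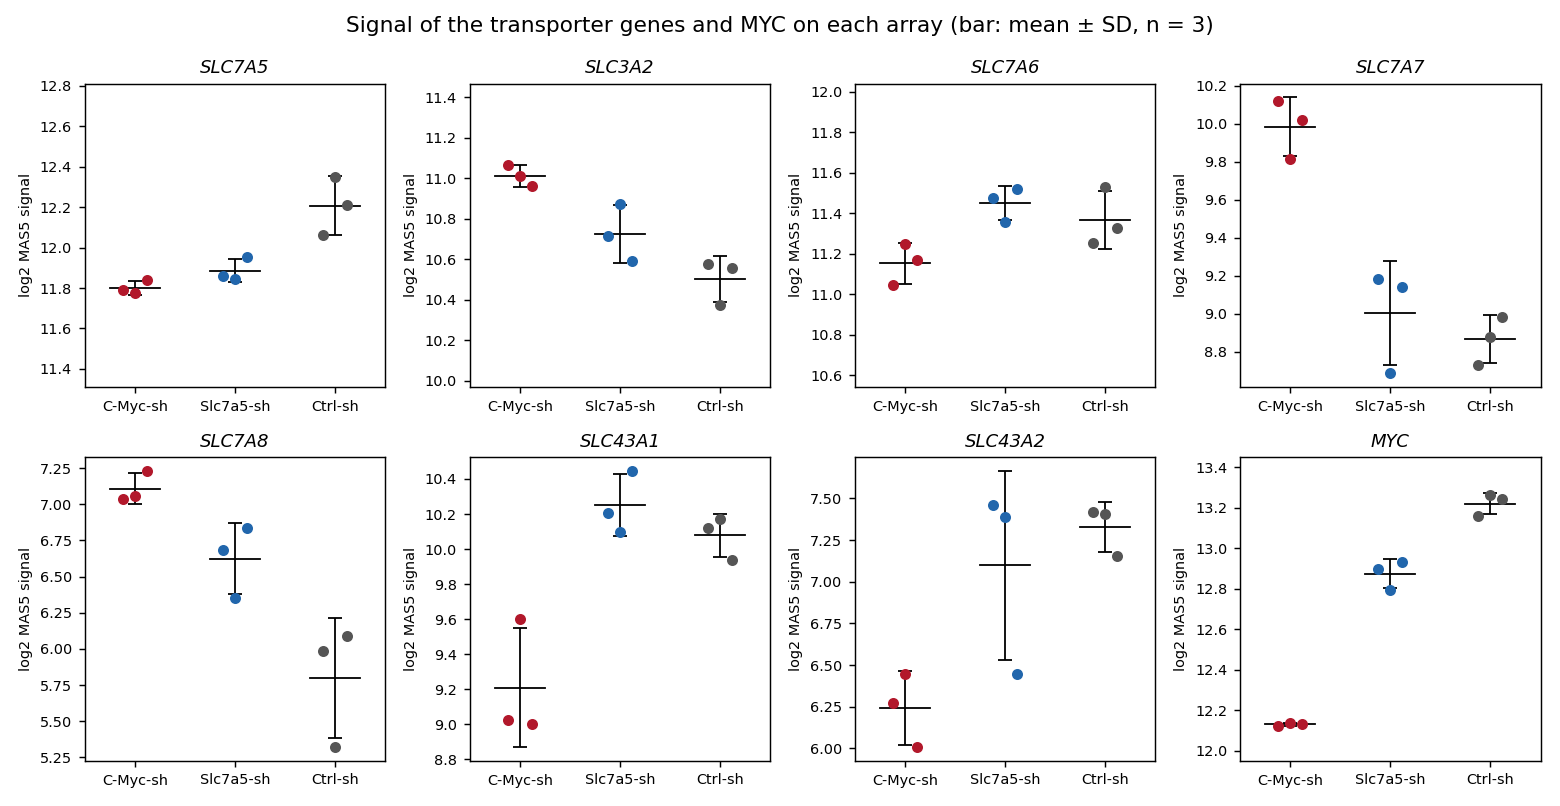
Log2 MAS5 signal of the 7 transporter genes and MYC on each of the 9 arrays, with the group mean and SD (n = 3), each panel on its own scale. SLC7A5 and MYC were lowest in C-Myc-sh and highest in Ctrl-sh, SLC3A2 ran the other way, and SLC7A7 and SLC43A1 stood apart in C-Myc-sh alone.

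SLC3A2, the heavy chain that all 4 light chains here need, ran opposite to SLC7A5. Its log2 signals were 11.06, 11.01 and 10.96 in C-Myc-sh, 10.71, 10.87 and 10.59 in Slc7a5-sh and 10.58, 10.37 and 10.56 in Ctrl-sh. C-Myc-sh was highest, Slc7a5-sh lay between, and no arrays of different groups overlapped, although the lowest Slc7a5-sh array was next to the highest Ctrl-sh array. SLC3A2 rose 1.42-fold in C-Myc-sh (log2 change 0.51, SE 0.09, adjusted p = 0.000161, limma). In Slc7a5-sh the change was 0.22 with an interval of 0.03 to 0.41, and its adjusted p of 0.0793 missed the threshold. Without Slc7a5-sh replicate 3 that change was 0.29 and was called (adjusted p = 0.0334).

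Directly compared, SLC3A2 was 1.22-fold higher in C-Myc-sh than in Slc7a5-sh (log2 difference 0.29, SE 0.09, adjusted p = 0.0135, limma). That call was lost without Slc7a5-sh replicate 3 (0.22, adjusted p = 0.0603) and without C-Myc-sh replicate 1 (0.26, adjusted p = 0.0514). SLC3A2 also had no second probe set, and its single one, 200924_s_at, is of the type that can bind related transcripts.

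Because SLC7A5 works only as a pair with SLC3A2, the log2 signal of the light chain minus that of the heavy chain was taken on each array, which removes any scaling factor of the array. The difference was 0.72, 0.76 and 0.88 in C-Myc-sh, 1.15, 0.97 and 1.36 in Slc7a5-sh and 1.48, 1.98 and 1.65 in Ctrl-sh. Since probe sets bind with different strength, the size of this value does not give a ratio of molecules, and only its shift between groups can be read. The 3 groups did not overlap: C-Myc-sh was lowest and Ctrl-sh highest.

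The mean was 0.79 ± 0.08 in C-Myc-sh, 1.16 ± 0.20 in Slc7a5-sh and 1.71 ± 0.25 in Ctrl-sh (SD, n = 3). The signal of SLC7A5 relative to SLC3A2 thus fell by 0.92 in C-Myc-sh, to 53.0% of that in Ctrl-sh. In Slc7a5-sh it fell by 0.54, to 68.6%. Both chains entered these shifts. SLC7A5 changed by -0.41 and SLC3A2 by 0.51 in C-Myc-sh, and by -0.32 and 0.22 in Slc7a5-sh, the last not called. Between the knockdowns the difference was -0.37, lower in C-Myc-sh. Each of the 3 exact two-sided permutation tests gave p = 0.1, which is the smallest that 3 arrays against 3 allow, so none can pass 0.05. Quantile normalization kept every one of these differences below 0. Leaving out 1 array at a time could not change a sign, because the groups did not overlap, so it adds no support.

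**Figure D2:**
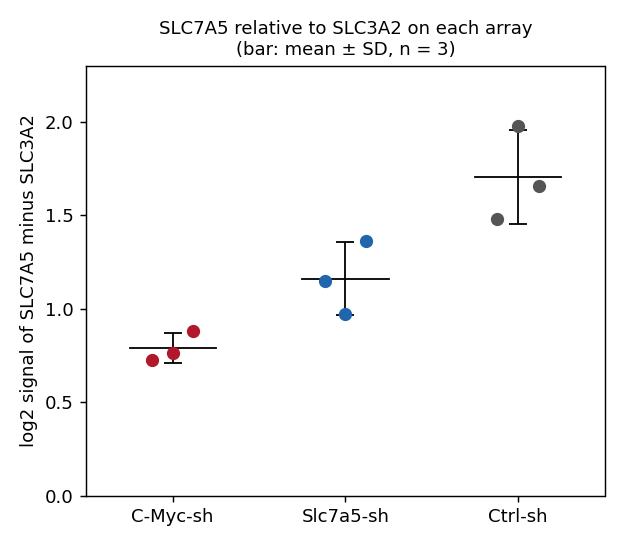
Log2 signal of the light chain SLC7A5 minus that of the heavy chain SLC3A2 on each array, with the group mean and SD (n = 3). C-Myc-sh arrays lie between 0.72 and 0.88, below Slc7a5-sh (0.97 to 1.36) and Ctrl-sh (1.48 to 1.98), without overlap.

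Of the other light chains of SLC3A2, SLC7A7 and SLC7A8 rose in C-Myc-sh and SLC7A6 fell, and none of the 3 was called in Slc7a5-sh. SLC7A7, the y+LAT1 chain whose loss causes lysinuric protein intolerance, had the smallest adjusted p of the members in C-Myc-sh. Its log2 signals were 10.12, 9.82 and 10.02 in C-Myc-sh, 9.18, 8.69 and 9.14 in Slc7a5-sh and 8.73, 8.88 and 8.98 in Ctrl-sh. C-Myc-sh stood above both other groups, which overlapped. The gene rose 2.17-fold in C-Myc-sh against Ctrl-sh (log2 change 1.12, SE 0.15, adjusted p = 1.17e-05, limma), more than 93.0% of tested genes. Against Slc7a5-sh it was 1.97-fold higher in C-Myc-sh (log2 difference 0.98, adjusted p = 5.5e-05). In Slc7a5-sh its change of 0.14 from Ctrl-sh, with an interval of -0.18 to 0.45, did not pass the test (adjusted p = 0.54).

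SLC7A8 encodes LAT2, the closest relative of LAT1, which carries small as well as large neutral amino acids and is best known from kidney and gut. Its best probe set, 216092_s_at, read 7.04, 7.06 and 7.23 on the log2 scale in C-Myc-sh, 6.68, 6.35 and 6.83 in Slc7a5-sh and 5.99, 5.32 and 6.09 in Ctrl-sh. The groups did not overlap, with C-Myc-sh highest and Ctrl-sh lowest, and the Ctrl-sh arrays lay near the filter level of 5.77. The increase in C-Myc-sh was 1.31 (SE 0.37, interval 0.51 to 2.11, adjusted p = 0.00794, limma), which is 2.48-fold. In Slc7a5-sh the change was 0.83 with a wide interval of 0.03 to 1.63 (adjusted p = 0.124), and the knockdowns did not differ detectably (C-Myc-sh minus Slc7a5-sh 0.48, interval -0.32 to 1.29, adjusted p = 0.308).

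The other 4 probe sets of SLC7A8 were dim and gave no called change in a fit over all 41091 probe sets of 1 symbol, in which 216092_s_at was still called in C-Myc-sh (adjusted p = 0.0278). One of them, 217248_s_at, read 5.48, 6.31 and 5.02 in C-Myc-sh, above the 2.67, 3.93 and 3.25 of Ctrl-sh, with Slc7a5-sh scattered at 6.11, 5.92 and 1.13. Its change in C-Myc-sh was 2.32 (SE 1.20, adjusted p = 0.202). A further one, 202752_x_at, had the opposite sign, at -0.42 in C-Myc-sh (SE 0.70, adjusted p = 0.767), with overlapping groups. The rise of SLC7A8 therefore rests on 1 of its 5 probe sets.

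SLC7A6, the y+LAT2 chain, is expressed widely. By the brightest probe set of each gene it was the light chain with the smallest change from Ctrl-sh in each knockdown. Its other probe sets did not keep that rank in Slc7a5-sh, nor did 203578_s_at in C-Myc-sh. Log2 signals of its brightest one, 203580_s_at, were 11.05, 11.25 and 11.17 in C-Myc-sh, 11.48, 11.36 and 11.52 in Slc7a5-sh and 11.25, 11.53 and 11.33 in Ctrl-sh. C-Myc-sh was lowest, separated from Ctrl-sh by a gap that vanishes at 2 decimals, and the other two groups overlapped. The fall in C-Myc-sh was 0.21 against Ctrl-sh, to 86.2% (change -0.21, SE 0.08, interval -0.39 to -0.04, adjusted p = 0.0399, limma). The fits that lost that call were those without Ctrl-sh replicate 2 or 3 and without C-Myc-sh replicate 1 or 3, and without Ctrl-sh replicate 2 the change was -0.14 (adjusted p = 0.202).

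Against Slc7a5-sh, SLC7A6 was lower in C-Myc-sh (log2 difference -0.30, SE 0.08, adjusted p = 0.00786, limma), a call kept in all 6 such fits. Its other probe sets, 203579_s_at and 203578_s_at, differed in size but not in sign, with changes of -0.15 (adjusted p = 0.336) and -0.56 (adjusted p = 0.0028) in C-Myc-sh against Ctrl-sh, over all probe sets of 1 symbol. Between the knockdowns both were called, at -0.42 (adjusted p = 0.00283) and -0.74 (adjusted p = 0.000289). In Slc7a5-sh the SLC7A6 change from Ctrl-sh was 0.08 (interval -0.10 to 0.26, adjusted p = 0.516). There 203579_s_at gave 0.28 (interval 0.07 to 0.48, adjusted p = 0.0888, limma), without overlap of the 2 groups. The change of 203578_s_at was 0.17 (adjusted p = 0.527), so neither was called.

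Of the facilitators that need no heavy chain, SLC43A1 (LAT3), first known from prostate tissue and its cancers, was the clearer. Log2 signals were 9.02, 9.60 and 9.005 in C-Myc-sh, 10.21, 10.10 and 10.44 in Slc7a5-sh and 10.12, 10.17 and 9.94 in Ctrl-sh. Every C-Myc-sh array lay below every other array, C-Myc-sh replicate 2 the least far, and Slc7a5-sh and Ctrl-sh overlapped. SLC43A1 fell to 54.8% of Ctrl-sh in C-Myc-sh (log2 change -0.87, SE 0.15, interval -1.19 to -0.55, adjusted p = 0.000162, limma). It was at 48.6% of the Slc7a5-sh level in the direct comparison (log2 difference -1.04, SE 0.15, adjusted p = 3.79e-05). In Slc7a5-sh the change from Ctrl-sh was 0.17, with an interval of -0.15 to 0.49 (adjusted p = 0.444). This gene thus fell further than SLC7A5 did in C-Myc-sh, with 9.11% of tested genes lower, against 23.6% for SLC7A5, though that difference between genes was not tested.

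SLC43A2 (LAT4) read 6.27, 6.45 and 6.01 in C-Myc-sh, 7.46, 7.39 and 6.45 in Slc7a5-sh and 7.42, 7.41 and 7.15 in Ctrl-sh with its brighter probe set, 226629_at. C-Myc-sh lay below Ctrl-sh throughout, while the third Slc7a5-sh array sat at the level of the highest C-Myc-sh array and the other two at that of Ctrl-sh. The change in C-Myc-sh was -1.08 (SE 0.34, interval -1.82 to -0.35, adjusted p = 0.0148, limma), to 47.1% of Ctrl-sh. Between C-Myc-sh and Slc7a5-sh it was -0.86 and just missed the threshold (adjusted p = 0.0521), which it passed in 5 of 9 alternative settings. Leaving out Slc7a5-sh replicate 3 made that -1.18 and called it (adjusted p = 0.00966), and turned the Slc7a5-sh change from Ctrl-sh to 0.097 where all 3 arrays gave -0.23 (adjusted p = 0.676).

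The second probe set of SLC43A2, 228918_at, went the other way. It read 6.05, 6.24 and 7.49 in C-Myc-sh, 6.32, 6.23 and 6.82 in Slc7a5-sh and 4.63, 4.14 and 6.47 in Ctrl-sh, with overlap between all groups. Its changes were 1.51 in C-Myc-sh (SE 0.65, adjusted p = 0.109) and 1.38 in Slc7a5-sh (SE 0.65, adjusted p = 0.243), neither called. The 2 probe sets of SLC43A2 therefore disagree in sign, and the mean over both gave 0.21 in C-Myc-sh (adjusted p = 0.649). Which transcripts each one reads was not tested.

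**Figure D3:**
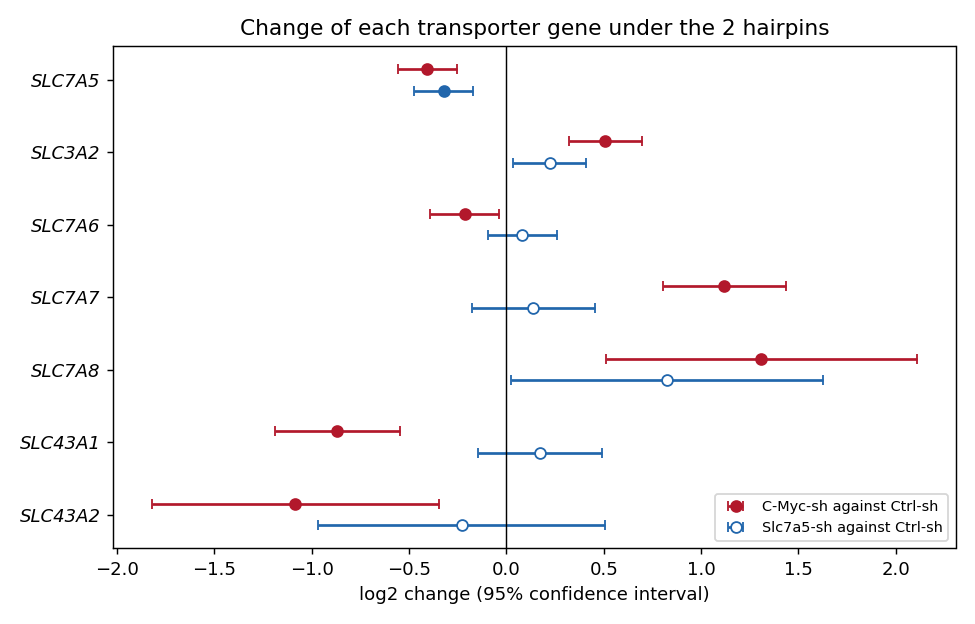
Log2 change of each of the 7 transporter genes against Ctrl-sh in C-Myc-sh (red) and Slc7a5-sh (blue), with 95% confidence intervals from limma, where filled points have an adjusted p below 0.05. All 7 points of C-Myc-sh are filled, and of Slc7a5-sh that of SLC7A5 is.

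**Figure D4:**
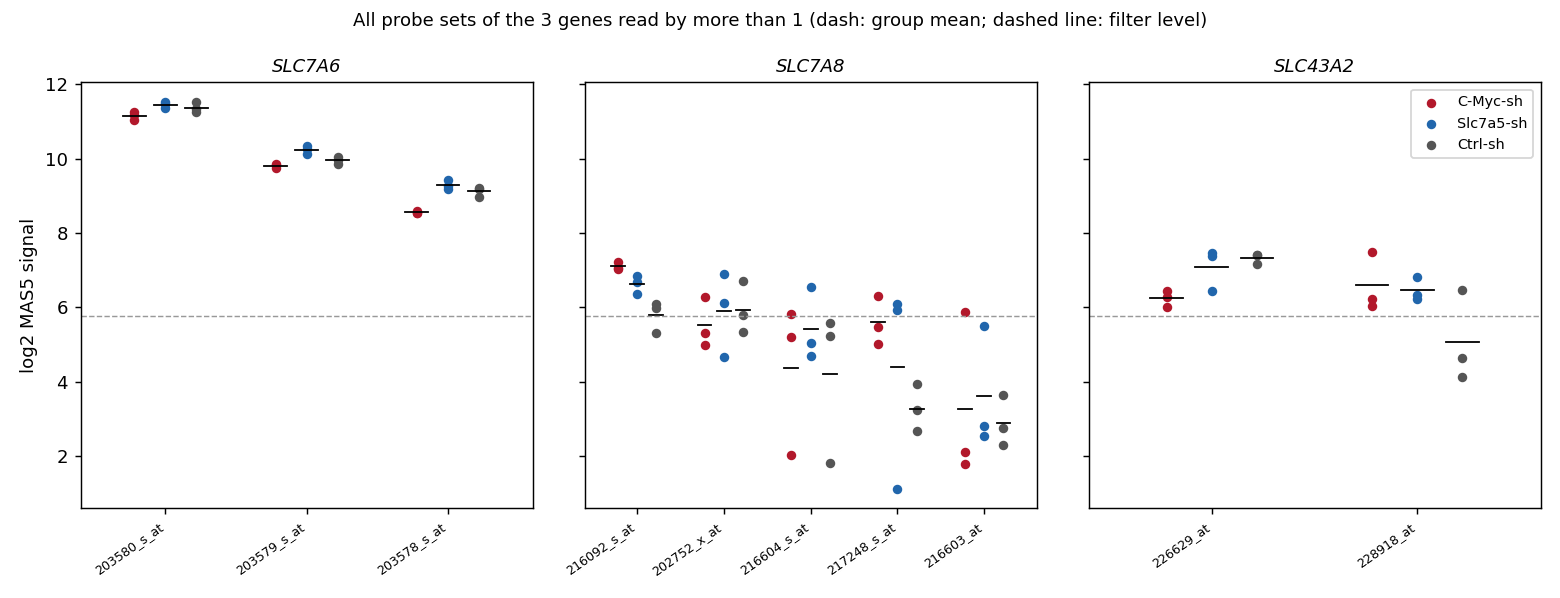
Log2 signal on each array of every probe set of the 3 members with more than 1, by group (n = 3, dash at the mean), with the filter level of 5.77 dashed. The 3 probe sets of SLC7A6 are bright and tight and lowest in C-Myc-sh, the other 4 of SLC7A8 scatter about or below the filter level, and the 2 of SLC43A2 rank the groups in different orders.

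For each member the 3 tested genes with the most similar profile were sought, by the smallest root mean square difference of mean-centred log2 signals over the 9 arrays. For SLC7A5 these were PGAM1 (0.06 log2 units), a glycolytic enzyme, THOC5 (0.06), a part of the mRNA export complex THO, and ECI1 (0.07), an enzyme of mitochondrial fatty acid oxidation. PGAM1 changed by -0.42 in C-Myc-sh and -0.25 in Slc7a5-sh. SLC3A2 was nearest to XKR8, a phospholipid scramblase, TUBE1, the epsilon tubulin of centrioles, and KDM3B, a histone demethylase, at 0.06 to 0.07. SLC7A8 lay nearest to DNAJB9 and DERL2, which act in folding and disposal of proteins in the endoplasmic reticulum, and to IQCE, at 0.19 each.

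SLC43A1 was most like BIK, a BH3-only cell death gene, FAM117B and MRPS26, a mitochondrial ribosomal protein, at 0.15. SLC43A2 was most like KCNH2, a potassium channel, IKZF5, a zinc finger factor, and BAG2, a co-chaperone, at 0.20 to 0.22. The nearest to SLC7A6 were BTF3, which acts on nascent chains at the ribosome, and the ribosomal proteins RPL38 and RPS7, at 0.05 to 0.06. SLC7A7 had TTBK2, a kinase of cilium assembly, SPMIP4 and ZDBF2 as its nearest, at 0.09 to 0.11. These neighbours were not stable: over 10 to 11 alternative settings chosen after seeing the data, between 0 and 3 of the 3 were kept across the 7 members, on average 0.9 for SLC7A8 and 1.82 for SLC7A7.

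Other genes of the same families and of leucine handling were taken from lists, whose counts and medians are to be read beside those over all genes. Of all genes 54.9% were called in C-Myc-sh, 25.3% in Slc7a5-sh and 49.5% between the knockdowns. Of 11 other SLC3, SLC7 and SLC43 genes 6 were tested, of which 1 rose and 3 fell in C-Myc-sh and 2 rose in Slc7a5-sh. Between the knockdowns 3 were lower in C-Myc-sh and none higher. Their median change was -0.06 in C-Myc-sh, 0.22 in Slc7a5-sh and -0.28 between the knockdowns. SLC7A11, the cystine carrier that shares the heavy chain SLC3A2, averaged 11.12 ± 0.16 in C-Myc-sh, 10.86 ± 0.05 in Slc7a5-sh and 8.91 ± 0.20 in Ctrl-sh (SD, n = 3, log2), and was called in both knockdowns (adjusted p = 4.19e-10 in C-Myc-sh and 9.24e-08 in Slc7a5-sh, limma). SLC43A3, a nucleobase carrier of the LAT3 family, averaged 10.38 ± 0.13 in C-Myc-sh, 11.49 ± 0.04 in Slc7a5-sh and 11.69 ± 0.07 in Ctrl-sh. Its fall of 1.31 in C-Myc-sh was called (adjusted p = 2.22e-09, limma), while its change of -0.20 in Slc7a5-sh was not (adjusted p = 0.0685, or 0.0433 with the 6 arrays compared). The cationic carrier SLC7A3 fell by 1.59 in C-Myc-sh (adjusted p = 1.55e-06), and its change of 0.38 in Slc7a5-sh was not called (adjusted p = 0.119, or 0.0129 with the 6 arrays compared). The cationic carrier SLC7A1 moved in opposite directions, with a change of -0.39 in C-Myc-sh (adjusted p = 8.05e-05, limma) and 0.32 in Slc7a5-sh (adjusted p = 0.0016). Both calls of SLC7A1 were lost with the mean of its probe sets (-0.14, adjusted p = 0.68, and 0.022, adjusted p = 0.968) and without probe sets of the cross-binding types, where the Slc7a5-sh sign turned.

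Of 18 further carriers of neutral amino acids 10 were tested, and 3 rose and 5 fell in C-Myc-sh while 2 rose in Slc7a5-sh, beside the 54.9% and 25.3% of all genes. In the direct comparison 2 of the 10 were higher and 5 lower in C-Myc-sh, beside 24.4% and 25.1% of all genes. The list's medians over these comparisons were -0.23, 0.16 and -0.35. SLC38A2, which imports glutamine and other small neutral amino acids, rose by 1.24 in C-Myc-sh (adjusted p = 8.64e-11, limma) and by 0.69 in Slc7a5-sh (adjusted p = 9.08e-07). SLC16A10, a facilitator of aromatic amino acids and so a carrier of some of the LAT1 substrates, averaged 8.55 ± 0.12 in C-Myc-sh, 9.96 ± 0.10 in Slc7a5-sh and 9.88 ± 0.06 in Ctrl-sh, and its fall of 1.33 in C-Myc-sh was called (adjusted p = 9.46e-08). SLC38A5, a glutamine carrier, fell by 1.85 in C-Myc-sh (adjusted p = 3.57e-07). SLC38A1, a glutamine carrier too, fell by 0.51 in C-Myc-sh (adjusted p = 5.71e-07) and missed the threshold in Slc7a5-sh at 0.14 (adjusted p = 0.0557), passing it with quantile normalization (0.19, adjusted p = 0.0083) and without Slc7a5-sh replicate 3 (0.16, adjusted p = 0.0386). SLC1A4, a carrier of alanine, serine and cysteine, changed by -0.30 in C-Myc-sh (adjusted p = 0.00676) and by 0.33 in Slc7a5-sh (adjusted p = 0.0104). Both calls of SLC1A4 were lost with the mean of its probe sets (-0.19, adjusted p = 0.33, and 0.16, adjusted p = 0.532) and without the cross-binding probe sets, where the Slc7a5-sh sign turned. The Slc7a5-sh call was also lost without Slc7a5-sh replicate 1 (0.27, adjusted p = 0.0541).

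Of 8 genes listed as binders of CD98 or LAT1, 7 had a probe set and 3 were tested, BSG, ITGB1 and LAPTM4A. LAPTM4A was listed beside LAPTM4B, and its own binding to LAT1 is not taken as known here. ITGB1, the integrin chain whose signalling CD98 assists, rose by 0.98 in C-Myc-sh (adjusted p = 1.37e-08, limma), a call lost with the mean of its probe sets (0.94, adjusted p = 0.0524), and LAPTM4A, a lysosomal membrane protein, by 0.58 (adjusted p = 1.36e-06). In Slc7a5-sh ITGB1 was the 1 called, lower with a log2 change of -0.22 (adjusted p = 0.0277). That ITGB1 call was lost in fits without Ctrl-sh replicate 2 (adjusted p = 0.116) or 3 (0.0818) and without Slc7a5-sh replicate 2 (0.0541) or 3 (0.0659), without a trend (0.0594) and with the 6 arrays compared (0.0554), and other probe sets turned its sign. Between the knockdowns 2 of the 3 were higher in C-Myc-sh and none lower, beside 24.4% and 25.1% of all genes. The medians of 0.58, -0.07 and 0.66 are the changes of LAPTM4A itself, so they describe that gene. BSG did not pass the test in any of the 3 comparisons.

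Of 8 genes known to regulate these carriers 7 were tested, with 2 higher and 2 lower in C-Myc-sh, 3 higher and 2 lower in Slc7a5-sh, and 3 higher and 3 lower in the direct comparison. MYC, which the C-Myc hairpin targets, is 1 of the genes counted as lower in both knockdowns, and 54.9%, 25.3% and 49.5% of all genes were called in these comparisons. The medians were -0.04, -0.05 and 0.35. HIF1A, a hypoxia factor, rose by 1.00 in C-Myc-sh (adjusted p = 5.59e-10, limma) and 0.43 in Slc7a5-sh (adjusted p = 4.1e-05). ATF4, the factor of the amino acid response, averaged 14.07 ± 0.09 in C-Myc-sh, 14.39 ± 0.03 in Slc7a5-sh and 13.96 ± 0.08 in Ctrl-sh, and was called in Slc7a5-sh (adjusted p = 0.000102) but not in C-Myc-sh (0.11, adjusted p = 0.118), where it was called with quantile normalization (0.31, adjusted p = 0.000114) and without C-Myc-sh replicate 1 (0.15, adjusted p = 0.0367). DDIT3, a stress factor downstream of ATF4, rose by 1.66 in C-Myc-sh (adjusted p = 3.1e-09) and by 0.46 in Slc7a5-sh (adjusted p = 0.00352).

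All 16 listed genes that use or sense leucine were tested, and 3 rose and 6 fell in C-Myc-sh while 4 rose in Slc7a5-sh, shares close to the 54.9% and 25.3% of all genes. Between the knockdowns 5 of the 16 were higher and 6 lower in C-Myc-sh, beside 24.4% and 25.1% of all genes. The list's medians over the 3 comparisons were 0.003, 0.16 and -0.20. RRAGC, a Rag GTPase that brings mTORC1 to the lysosome, rose by 1.22 in C-Myc-sh (adjusted p = 1.1e-07, limma) and 0.50 in Slc7a5-sh (adjusted p = 0.00249), where the call was lost with the mean of its probe sets (0.61, adjusted p = 0.0561). Its paralogue RRAGD rose by 1.14 in C-Myc-sh (adjusted p = 6.54e-09) and by 0.21 in Slc7a5-sh (adjusted p = 0.0446), the second call being lost in most alternatives, among them each fit without Slc7a5-sh replicate 1 (adjusted p = 0.164) or 2 (0.113) and without Ctrl-sh replicate 1 (0.16) or 3 (0.108). SESN2, a leucine sensor, rose by 1.35 in C-Myc-sh (adjusted p = 1.55e-06) and by 0.67 in Slc7a5-sh (adjusted p = 0.00388). LARS1, the leucyl-tRNA synthetase, changed by -0.23 in C-Myc-sh (adjusted p = 0.00107) and by 0.24 in Slc7a5-sh (adjusted p = 0.00256), and both calls were lost with the mean of its probe sets (adjusted p = 0.0983 and 0.643). The C-Myc-sh call of LARS1 was also lost with quantile normalization (-0.073, adjusted p = 0.188). BCAT1, which takes the amino group from leucine, averaged 13.20 ± 0.02 in C-Myc-sh, 14.17 ± 0.04 in Slc7a5-sh and 14.25 ± 0.02 in Ctrl-sh, and its fall of 1.05 in C-Myc-sh was called (adjusted p = 1.29e-10).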

How the data were processed

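Per the labels' protocols, total RNA was amplified with a 3′ transcription kit, biotin-labelled and measured on GeneChip arrays. The authors deposited log2 signals, 1 per probe set and array, and the submitters' processing notes name MAS5 without a version. Base 2 follows from the values, since the mean of the linear signals, trimmed by 2% at each end, came to 497 on each array. The table held 54613 probe sets, of which 41091 had exactly 1 symbol, 1801 several and 11721 none in the platform annotation. For each gene the probe set with the highest mean over 9 arrays was used, and genes at or above the median probe-set mean (5.77 log2, 54.6 linear) were tested. Dim MAS5 signals scatter widely once logged, and the number of arrays limits the precision.

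limma 3.58.1 in R 4.3.3 fitted 3 group means over all 9 arrays, with a mean-variance trend in eBayes (residual degrees of freedom 6, prior 8.21). Tests were two-sided with Benjamini-Hochberg adjustment over 11250 genes. The fit was tested on simulated data. Deviations of same-numbered arrays correlated at -0.023 to 0.018, so the fit did not pair them, though the labels do not say whether they shared an origin. The 7 members, the 5 gene lists and the 2 motifs were chosen with earlier results of these data known, and the lists came from general knowledge. Besides the members and MYC, the genes named are the 3 nearest in profile to each member and, from each list, those among the 3 smallest p in either knockdown. Alternatives covered normalization, filter, probe sets, spread and each array.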

Additional observations from a re-analysis of the deposited data

How the results depend on the processing

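SLC7A5 was called in both knockdowns in 9 of 9 settings that could test it and in 6 of 6 fits leaving out 1 array, and MYC likewise. The calls of SLC43A1, SLC7A7, SLC7A8 and SLC3A2 in C-Myc-sh against Ctrl-sh held in every setting that tested them, apart from the 4 dim probe sets of SLC7A8 taken alone. SLC7A8 could be tested in 7 settings, which did not include the mean of its probe sets. Without probe sets ending in _s_at or _x_at 2 members could be tested, and 0, 2 and 1 were called in Slc7a5-sh against Ctrl-sh, C-Myc-sh against Ctrl-sh and C-Myc-sh against Slc7a5-sh. In that setting SLC7A1 changed by -0.12, SLC1A4 by -0.59 SLC16A10 by -0.39 and ITGB1 by 0.059 in Slc7a5-sh. With the mean of all probe sets 1581 genes were called in Slc7a5-sh against Ctrl-sh (2843 otherwise), ITGB1 changed by 0.14, SLC16A10 by -0.14 and BCAT1 by 0.0066 there, and SLC43A2 by 0.57, against 0.21 in C-Myc-sh. With eBayes without a trend 2 members were called in Slc7a5-sh, as SLC7A8 passed (adjusted p = 0.0332). Leaving out 1 array at a time gave 1 to 2 members called there, SLC43A2 changes of -0.41 to 0.097 and BSG changes of -0.044 to 0.11 in C-Myc-sh (-0.11 with quantile normalization).

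Single probe sets with the other sign were 228918_at of SLC43A2 (1.38 in Slc7a5-sh, 1.51 in C-Myc-sh, 0.14 between the knockdowns), 202752_x_at of SLC7A8 (-0.045, -0.42 and -0.37) and, between the knockdowns, 216604_s_at (-1.06) and 216603_at (-0.37) of SLC7A8. The SLC7A6 call in C-Myc-sh was lost with no filter (adjusted p = 0.0574) and without a trend (adjusted p = 0.0933). The causes were not tested. The labels do not say whether same-numbered arrays shared an origin, so the replicate block was run as an alternative. With that block 1, 7 and 5 members and 2775, 6147 and 5526 genes were called in the same order of comparisons. SLC43A2 then passed between the knockdowns (adjusted p = 0.0485), as it did with quantile normalization (0.0216), low values raised to the filter level (0.0251), no trend (0.0316) and array weights (0.0261). Quantile normalization moved the median change of all genes in C-Myc-sh from 0.04 to -0.001. Of 1144 alternative values of single genes 1058 kept their sign and side of the threshold, 43 lost a call, 20 gained one and 23 changed sign.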
